A study of Mus musculus with 6 samples.

Results

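The SR proteins, the hnRNPs and a small group of other sequence-specific splicing regulators were examined in mouse lineage-negative BM cells exposed to the Plek2 inhibitor NUP-17d. Members were taken by symbol: every gene named Srsf followed by a number, every gene whose symbol begins with Hnrnp, and Tra2a, Tra2b, Rbfox2, Mbnl1, Mbnl2, Ptbp1, Ptbp3, Celf1 and Celf2. This gave 41 of the 17060 genes listed in at least 1 culture, made up of 11 SR proteins, 21 hnRNPs and 9 other regulators. The cells came from WT mice, were depleted of lineage-positive cells and were grown in EPO-containing medium for 48 hours with DMSO, the solvent, in 3 cultures or with NUP-17d in 3 cultures. The dose was 10 μM by the study's legend, and the compound is described in the study as a mixture of stereoisomers. The study's methods name C57BL/6 for the WT mice of its drug screen, and the labels of these cultures give no strain, age or number of mice. The labels do not say whether the cultures came from separate mice, so p-values measure the spread between these cultures, which may be technical.

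Splicing removes introns from pre-mRNA and joins exons, and the choice of splice sites is set in large part by RNA-binding proteins that do not belong to the core spliceosome. SR proteins carry RNA recognition motifs and a domain rich in arginine and serine, bind exonic enhancers and recruit the spliceosome, and they are switched by phosphorylation. hnRNPs coat nascent transcripts, often bind silencers and often oppose SR proteins. MBNL, CELF, PTB and RBFOX proteins bind short motifs and act by position, and in maturing erythroblasts regulated splicing remodels transcripts for membrane skeleton proteins and other late genes.

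Each culture was sequenced to a similar depth, with expected counts that summed to between 20076409 and 20419018. Expected counts are estimated reads per gene, which need not be whole where reads were shared between genes or transcripts. Counts were scaled by the trimmed mean of ratios between libraries (TMM). On that scale all 11 erythroid markers examined fell, and with library totals alone 9 were called lower, Gata1 was at a log2 fold change of -0.07 and Klf1 at 0.03, neither called. Their summed level on the TMM scale was 116462 to 131566 CPM (counts scaled to a common library size) in DMSO and 65299 to 73537 in NUP-17d, and hemoglobin genes took 18.3% to 20.3% of counts in DMSO against 11.8% to 13.1% in NUP-17d. Of the marker lists for other cells, megakaryocyte genes were called higher for 5 of 7 tested and lower for 0. Neutrophil genes were called higher for 1 and lower for 1 of 8, macrophage genes for 2 and 2 of 8, and mast cell and basophil genes for 2 and 2 of 7. Lymphoid genes were called lower for 2 of 6, with a summed level of 28.4 to 31.7 CPM in DMSO and 25.9 to 26.7 in NUP-17d. With library totals the calls higher and lower were 7 and 0 for megakaryocyte, 7 and 0 for neutrophil, 4 and 0 for macrophage, 4 and 0 for mast cell and basophil, and 1 and 1 for lymphoid genes. Of all 12306 genes tested, 16.4% were called higher and 18.9% lower with TMM. With library totals most were called higher, 8458 against 657 lower. Ighm, of the lymphoid list, was listed in no culture, and no other marker was at 0 in every culture. The part of these shifts in the values below was not tested, and in bulk RNA fewer cells of a type and less RNA per cell cannot be told apart. Plek2 itself, the target of the compound, was lower by a log2 fold change of -0.40 on the TMM scale (SE 0.048). Its mean FPKM, a level per length and library total, was 30.5 in DMSO and 27.9 in NUP-17d.

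Promoter sequences of members at both ends of the response are printed first, so that the start regions of members that fell and of members that did not can be compared. Among members with a single promoter in the RefSeq table, these are the 3 with the lowest log2 fold change (Srsf1, Srsf3 and Tra2a) and the 2 with the highest (Srsf9 and Hnrnpa0), chosen after their values were seen. Each run gives the 250 bases before the annotated start on the gene's own strand, in GRCm38.p6 coordinates, the assembly also called mm10. The Srsf1 window is chr11:88047123-88047372 on the plus strand. This window lies inside the annotated span of its gene, and those of Tra2a and Srsf9 lie partly inside. The others are chr17:29032410-29032659 (Srsf3, plus), chr6:49264053-49264302 (Tra2a, minus), chr5:115326927-115327176 (Srsf9, plus) and chr13:58128557-58128806 (Hnrnpa0, minus). Capitals mark, on either strand, CCGGAA as the core of an ETS motif, CCAAT as that of an NF-Y motif, CACGTG as an E-box and AGATAA as a GATA motif.
Srsf1: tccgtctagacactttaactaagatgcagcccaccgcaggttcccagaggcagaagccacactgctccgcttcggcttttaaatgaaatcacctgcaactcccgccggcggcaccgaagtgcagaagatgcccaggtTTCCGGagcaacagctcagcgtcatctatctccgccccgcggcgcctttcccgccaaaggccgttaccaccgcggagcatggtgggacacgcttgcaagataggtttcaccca
Srsf3: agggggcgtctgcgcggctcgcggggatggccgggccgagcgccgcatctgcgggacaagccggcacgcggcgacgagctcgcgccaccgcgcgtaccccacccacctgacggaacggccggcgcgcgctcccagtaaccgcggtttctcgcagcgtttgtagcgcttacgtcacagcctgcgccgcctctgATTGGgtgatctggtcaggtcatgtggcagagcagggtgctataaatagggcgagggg
Tra2a: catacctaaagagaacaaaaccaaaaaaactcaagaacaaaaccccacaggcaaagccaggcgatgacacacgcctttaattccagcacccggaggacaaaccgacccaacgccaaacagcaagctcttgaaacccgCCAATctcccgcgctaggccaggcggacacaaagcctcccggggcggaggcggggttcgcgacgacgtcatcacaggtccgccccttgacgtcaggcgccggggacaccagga
Srsf9: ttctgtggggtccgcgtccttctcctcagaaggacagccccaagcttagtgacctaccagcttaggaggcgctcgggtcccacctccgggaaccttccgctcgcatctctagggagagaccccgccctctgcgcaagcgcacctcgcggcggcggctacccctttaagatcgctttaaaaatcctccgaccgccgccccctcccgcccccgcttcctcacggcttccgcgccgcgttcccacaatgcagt
Hnrnpa0: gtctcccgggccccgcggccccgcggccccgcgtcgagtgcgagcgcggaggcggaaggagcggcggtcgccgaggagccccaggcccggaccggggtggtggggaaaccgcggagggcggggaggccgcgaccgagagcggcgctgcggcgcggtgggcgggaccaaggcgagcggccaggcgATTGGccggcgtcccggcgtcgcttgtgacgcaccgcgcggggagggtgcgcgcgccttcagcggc

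A single CCGGAA match lay in the Srsf1 window, 1 CCAAT match each in those of Srsf3, Tra2a and Hnrnpa0, and none of the 4 marked motifs in that of Srsf9. The RefSeq table held 54 promoters of 37 members. CCAAT was present in 25 of these, or 46.3%, against 35.6% of 12632 promoters of genes tested. It was found in 59.3% of the 27 promoters (20 genes) of members called lower and in 32.0% of the 25 promoters (15 genes) of members not called. GGGCGG, the core of an SP1 motif, was in 74.1% of member promoters and 56.1% of all tested. CCGGAA was in 29.6% and 21.4%, CACGTG in 9.26% and 8.32%, AGATAA in 5.56% and 6.21%, and TTCNNNGAA, the STAT motif, in 9.26% and 6.02%. The median number of CpG dinucleotides in the window was 22.5 for members and 15 for genes tested. These are counts of letters on both strands, and no test was run on them. Motifs may overlap each other.

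Low levels left 3 members untested. Rbfox2, a regulator of alternative exons in late erythroid maturation, had 4, 8 and 7 counts in DMSO and 6, 9 and 11 in NUP-17d. Srsf12 had 1, 1 and 1 against 0, 1 and 1. Hnrnpa1l2-ps2, a pseudogene by its symbol but listed as protein-coding in RefSeq, had between 2.58 and 8.38. Values of the groups overlapped or touched in all 3, and no difference was detectable at this depth. The other 38 members had mean counts from 573 to 13788.

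Relative to other genes, most splicing regulators declined modestly in NUP-17d. Of 38 members tested with edgeR's quasi-likelihood test on TMM-scaled counts, 22 were called lower at an adjusted p below 0.05 and 0 were called higher, whereas 18.9% of the 12306 genes tested were called lower and 16.4% higher. Among genes whose counts averaged at least 500, the range in which all 38 members fall and in which small changes are easier to call, 31.3% were lower and 19.2% higher. Members called lower made up 57.9% of those tested. The median log2 fold change was -0.12 over the members and 0.01 over all genes, and 35 of the 38 had a value below 0 (47.4% of all genes). In 26 members every NUP-17d culture lay below every DMSO culture, and in 1 every one lay above, against 23.2% and 22.8% of all genes. Changes were small, from -0.29 to 0.09 on the log2 scale.

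The sign of these changes depended on how the libraries were scaled. Scaled by library totals alone, the median of all genes moved to 0.28 and that of the members to 0.15, with 27 members called higher and 0 lower. Most genes were called higher in that setting, 8458 of the 12306 tested, and 657 lower. With hemoglobin genes also removed, a setting added after seeing the data, these medians were 0.16 and 0.03, with 11 members called higher and 5 lower. Of the 12283 genes tested there, 5703 were called higher and 1053 lower. As a share of all counts the 41 members went from 0.947% to 0.996% in DMSO to 1.05% to 1.09% in NUP-17d. The position of most members below the typical gene hardly depends on the scaling, which moves all genes by about the same amount. With the median of all genes tested taken off each fold change, a centring chosen after seeing the data, 35 of 38 members lay below that median and 24 were called lower than it with 0 higher, against 20.6% of all genes. That share was not computed for genes whose counts averaged at least 500, where small changes are easier to call. The same counts, 24 and 0, were obtained with library totals alone, with DESeq2-type or upper-quartile factors and with hemoglobin genes removed. The centring takes off the shift that a change of scaling makes, so this agreement was built in and is no separate support. On log2(FPKM + 1) by limma, 16 were called lower than the median and 0 higher. Values below are from the TMM fit, and "fell" means relative to the bulk of the transcriptome.

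**Figure D1:**
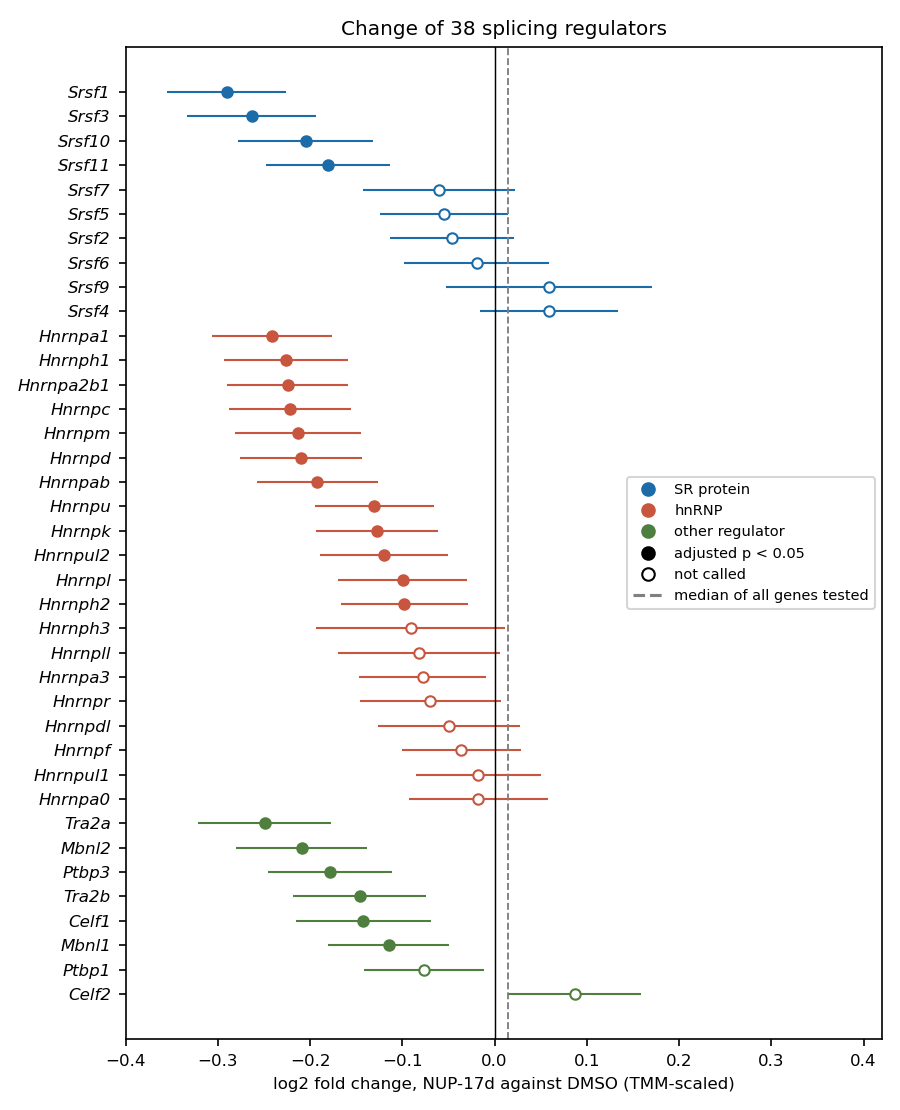
Log2 fold change of 38 splicing regulators, NUP-17d against DMSO, from the TMM-scaled fit (points, with bars for the 95% interval, 3 cultures per group), filled where the adjusted p was below 0.05. Of these, 22 lie to the left as filled points and none to the right, relative to a median of all genes of 0.01. Under library totals all values shift by about the same amount to the right and 34 more become positive, making 37.

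Among SR proteins, 4 of 10 tested fell and 0 rose relative to other genes (median -0.06), namely Srsf1, Srsf3, Srsf10 and Srsf11. That is 40.0%, near the 31.3% called lower among genes whose counts averaged at least 500. Srsf1, the founding SR protein that acts in both constitutive and alternative splicing, had 467, 467 and 476 CPM in DMSO and 383, 389 and 381 in NUP-17d. All 3 NUP-17d values lay well below all 3 DMSO values, and Srsf1 fell by 18.2% (log2 fold change -0.29, SE 0.033, edgeR adjusted p = 6.95e-08). Srsf1 was also the only member whose fold change stayed below 0 with library totals (-0.02), where its adjusted p was 0.525. Srsf3, the smallest of the SR proteins and a regulator of splicing and RNA export, had 188, 194 and 183 CPM against 154, 160 and 158. The 2 groups were apart and Srsf3 fell by 16.7% (log2 -0.26, SE 0.036, adjusted p = 1.34e-06). Srsf10 and Srsf11 fell by 0.20 and 0.18 on the log2 scale.

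The other SR proteins did not pass the test. Srsf2, whose recurrent mutations in myeloid neoplasms alter exon recognition, had 283, 290 and 285 CPM in DMSO and 268, 280 and 282 in NUP-17d. The groups did not overlap, but the highest NUP-17d value lay within 1 CPM of the lowest DMSO value, and the log2 fold change of -0.05 had a 95% interval of -0.11 to 0.02 (adjusted p = 0.322). Srsf4, Srsf5, Srsf6, Srsf7 and Srsf9 had log2 fold changes of 0.06, -0.05, -0.02, -0.06 and 0.06, with overlapping cultures in each. An adjusted p above the threshold does not show that their levels were equal, and the intervals reach from -0.14 for Srsf7 to 0.17 for Srsf9.

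**Figure D2:**
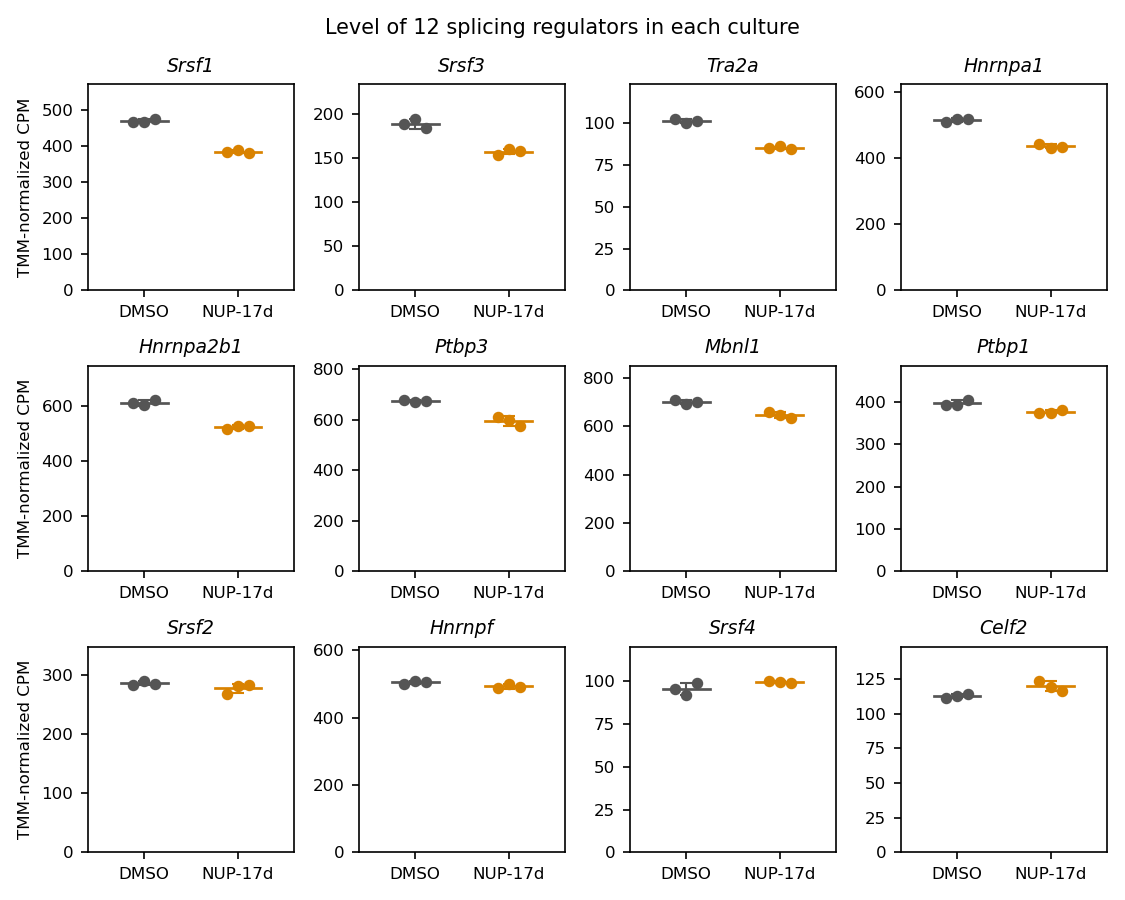
TMM-normalised CPM of 12 splicing regulators in each culture, with the mean (line) and SD (bars) of 3 cultures per group and each vertical axis starting at 0. Srsf1, Srsf3, Tra2a, Hnrnpa1, Hnrnpa2b1, Ptbp3 and Mbnl1 have NUP-17d values below all DMSO values, Ptbp1 and Srsf2 are apart by a narrow gap, Hnrnpf and Srsf4 overlap, and Celf2 has all 3 NUP-17d values above. With library totals in place of TMM, all of these except Srsf1 have a log2 fold change above 0.

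The hnRNPs formed the most abundant class, with a median FPKM of 98.5 (a level per length and library total) against 53.6 for SR proteins and 50.1 for the other regulators. Of 20 tested, 12 fell (60.0%) and 0 rose relative to other genes (median -0.11), and all 20 had a fold change below 0. Over all genes tested 18.9% were called lower and 47.4% were below 0. Where counts averaged at least 500, 31.3% were called lower. Hnrnpa1, an exon-silencing protein that often antagonises SR proteins, was the most abundant member with a mean of 257 FPKM. It had 508, 518 and 517 CPM in DMSO and 442, 431 and 432 in NUP-17d, so that the groups were far apart. Hnrnpa1 fell by 15.4% (log2 -0.24, SE 0.033, adjusted p = 1.67e-06). Its relative Hnrnpa2b1, which also sorts RNA for transport and was next in level per length, was at 608, 602 and 622 CPM against 516, 528 and 525. These groups did not overlap, and Hnrnpa2b1 fell by 14.4% (log2 -0.22, adjusted p = 5.61e-06). Reads of members of multigene families and of transcripts with processed pseudogenes may be divided by estimation, and 11 members, Hnrnpa1 among them, had a count that was not whole in at least 1 culture.

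Hnrnph1, which binds runs of G, had 221, 227 and 222 CPM in DMSO and 195, 191 and 187 in NUP-17d. The groups were apart (log2 -0.23, adjusted p = 7.26e-06). Its close paralogue Hnrnph2, with 151, 153 and 156 CPM against 142, 141 and 147, was also apart but by less, at a log2 fold change of -0.10 (adjusted p = 0.0318). The Hnrnph2 call was lost without DMSO replicate 2 or 3 or NUP-17d replicate 1 or 2 (adjusted p from 0.0709 to 0.114) and with DESeq2, upper-quartile factors or no filter on low counts. Hnrnpc, which packages nascent transcripts, Hnrnpm, Hnrnpd, which binds AU-rich elements, and Hnrnpab fell by 0.22, 0.21, 0.21 and 0.19 on the log2 scale.

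Smaller falls were called for Hnrnpu, Hnrnpk, Hnrnpul2 and Hnrnpl. Hnrnpu, a nuclear scaffold protein, had 556, 569 and 556 CPM in DMSO against 514, 514 and 507 (log2 -0.13, adjusted p = 0.00279). Hnrnpk, a poly(C)-binding protein with a mean of 176 FPKM, had 512, 525 and 531 CPM against 474, 487 and 475. The log2 fold change was again -0.13 (adjusted p = 0.0039), and in both genes all NUP-17d values were lower. Hnrnpul2 had 280, 266 and 266 CPM against 256, 247 and 244 and Hnrnpl, a CA-repeat binder, had 244, 260 and 246 against 226, 235 and 238. These groups were narrowly apart, at log2 fold changes of -0.12 and -0.10 (adjusted p = 0.00917 and 0.0317). The Hnrnpul2 call was lost without DMSO replicate 1 (adjusted p = 0.0537), and the Hnrnpl call without DMSO replicate 2 or NUP-17d replicate 1 or 2 (adjusted p from 0.0524 to 0.193) and with upper-quartile factors or no filter on low counts.

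The most abundant members did not all change alike in size. Hnrnpf, next in level after Hnrnpa1 and Hnrnpa2b1 at 220 FPKM, had 500, 510 and 507 CPM in DMSO and 488, 500 and 490 in NUP-17d, with overlapping groups and a log2 fold change of -0.04 (95% interval -0.10 to 0.03, adjusted p = 0.427). Hnrnpa3, at 163 FPKM, had 698, 675 and 722 CPM against 652, 670 and 664. All 3 NUP-17d cultures lay below DMSO, though the log2 fold change of -0.08 was not called (adjusted p = 0.0866). Against the median of all genes Hnrnpa3 was called (adjusted p = 0.0423), but not when any 1 culture other than DMSO replicate 2 was left out. Hnrnph3, Hnrnpll, Hnrnpr, Hnrnpdl, Hnrnpul1 and Hnrnpa0 had log2 fold changes from -0.09 to -0.02 and were not called.

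Of the other regulators, 6 of 8 tested fell relative to other genes (75.0%) and 0 rose (median -0.14). The share called lower was 18.9% over all genes and 31.3% where counts averaged at least 500. Tra2a, an SR-like protein that binds GAA-rich enhancers, had 102, 100 and 101 CPM in DMSO and 84.9, 86.0 and 84.3 in NUP-17d. The groups were well apart, and Tra2a fell by 15.9% (log2 -0.25, SE 0.037, adjusted p = 5.40e-06). Its paralogue Tra2b had 179, 186 and 191 CPM against 164, 174 and 165. These groups were apart too, with a log2 fold change of -0.15 (adjusted p = 0.00269).

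For the PTB, MBNL and CELF families 2 members each could be set side by side. Ptbp3, a PTB family member expressed in hematopoietic cells, had 679, 669 and 674 CPM in DMSO and 612, 598 and 576 in NUP-17d, with no overlap (log2 -0.18, adjusted p = 0.000177). Ptbp1, the polypyrimidine tract-binding silencer, had 392, 393 and 405 CPM against 374, 375 and 380. The NUP-17d values were all lower, by a smaller margin, and the log2 fold change of -0.08 was not called (adjusted p = 0.0775), although it was against the median of all genes (adjusted p = 0.0359). That call was lost without DMSO replicate 2 or 3 or NUP-17d replicate 1 or 2.

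Mbnl2 had 146, 147 and 144 CPM in DMSO against 124, 131 and 124 (log2 -0.21, adjusted p = 4.73e-05). Mbnl1, the more abundant muscleblind protein and a regulator of terminal erythroid splicing, had 710, 692 and 700 CPM against 660, 646 and 636 (log2 -0.11, adjusted p = 0.00894). Both were apart. Celf1, which binds GU-rich elements and also promotes mRNA decay, had 156, 149 and 151 CPM against 142, 138 and 133 (log2 -0.14, adjusted p = 0.00364). Celf2 was the only member with every NUP-17d value above every DMSO value, at 111, 113 and 114 CPM against 124, 119 and 117. Its log2 fold change of 0.09 was not called (95% interval 0.01 to 0.16, adjusted p = 0.0699).

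Because a ratio of 2 genes in 1 library does not depend on library scaling, related members were set against each other within each culture. The log2 ratio of FPKM was compared between groups by a two-sided exact permutation test, for which 0.1 is the smallest p that 3 against 3 cultures allow, and 10 pairs were compared. In 8 of the 10 pairs the cultures of the 2 groups did not overlap (exact p = 0.1, adjusted over the pairs p = 0.125), so none could pass 0.05. Of single genes, 23.2% were apart below and 22.8% apart above, and the share of other gene pairs that are apart was not computed. The pairs were also chosen with earlier results known, so the count of 8 is a description. The Srsf1 to Srsf9 ratio was 1.51 ± 0.071 (SD, n = 3) in DMSO and 1.17 ± 0.12 in NUP-17d, a difference of -0.35. Celf1 to Celf2 differed by -0.28, Srsf3 to Srsf7 by -0.20, and Hnrnph1 to Hnrnph2 by -0.13. With counts in place of FPKM the Celf1 to Celf2 difference was -0.23.

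The Tra2a to Tra2b ratio went from just above 0 to just below it, from 0.07 ± 0.056 (SD, n = 3) to -0.04 ± 0.032. Ptbp1 to Ptbp3 (0.10), Mbnl1 to Mbnl2 (0.10) and Hnrnpul1 to Hnrnpul2 (0.10) moved the other way. Hnrnpa1 to Hnrnpa2b1, with a difference of -0.02 (exact p = 0.5), and Srsf4 to Srsf6, with 0.08 (exact p = 0.4), overlapped between groups.

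**Figure D3:**
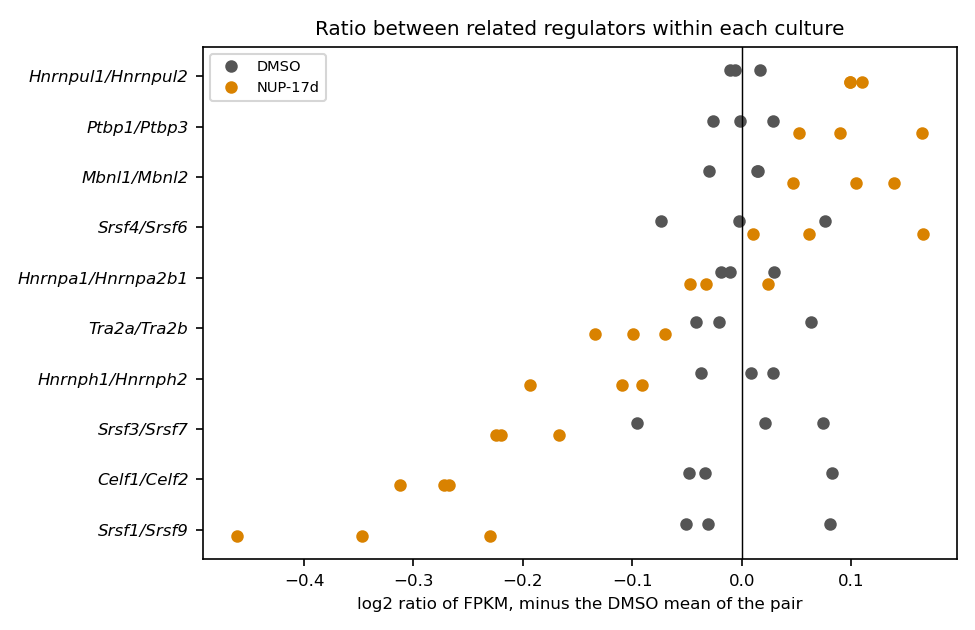
Log2 ratio of FPKM of 2 related regulators in each culture, minus the mean of the pair in DMSO (horizontal axis), for 10 pairs with 3 cultures per group. Both groups are apart in 8 pairs, with the Srsf1 to Srsf9 ratio lower by 0.35 and the Celf1 to Celf2 ratio lower by 0.28 in NUP-17d, and they overlap for Hnrnpa1 to Hnrnpa2b1 and Srsf4 to Srsf6.

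Another 4 lists of genes that act with these regulators were examined, and in each more genes were called lower than higher with TMM scaling, which reversed with library totals. Over all genes tested 18.9% were called lower and 16.4% higher with TMM, and 31.3% and 19.2% where counts averaged at least 500. With library totals 657 of all 12306 genes tested were called lower and 8458 higher, so that reversal is not particular to these lists. Of 11 kinases and phosphatases of SR proteins tested, 6 were called lower (54.5%) and 1 higher (median -0.10), against 2 lower and 7 higher with library totals. Clk1, the kinase that phosphorylates SR proteins in the nucleus, had 256, 255 and 269 CPM in DMSO and 152, 160 and 165 in NUP-17d. The groups were widely apart, and Clk1 fell by 0.71 on the log2 scale (SE 0.038, adjusted p = 3.14e-14), and its log2 fold change with library totals was -0.44. Ppp1cb, a catalytic subunit of protein phosphatase 1, fell by 0.54, and Clk3 by 0.34. Dyrk1a and Ppp1cc fell by 0.13 and 0.10, but were above 0 with library totals, at 0.14 and 0.17. Srpk2, a kinase that directs SR proteins to the nucleus, had 50.2, 53.3 and 52.3 CPM against 68.0, 65.2 and 62.6 (log2 0.33, adjusted p = 1.11e-06) and was the 1 called higher. With library totals its log2 fold change was 0.60.

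In a list of SR-related and other RNA-binding regulators, 21 of 50 tested were called lower and 2 higher (median -0.09), against 4 lower and 40 higher with library totals. Rbm38, which promotes an erythroid splicing switch, fell by 0.53, and Rbm5 and Rbm4 fell by 0.43 and 0.41. Syncrip fell by 0.11, and Scaf1 and Scaf4, with 0.10 and 0.13, were the 2 called higher. Core spliceosome genes were called lower for 34 of 74 (45.9%) and higher for 0 (median -0.11), against 1 lower and 52 higher with library totals. Snw1, Bud31 and Snrnp25 had the lowest values among those called, at -0.39, -0.34 and -0.34, and Snrpd1, Cdc40 and U2af2 the least negative, all near -0.12. Of 17 genes of nonsense-mediated decay and the exon junction complex, 5 were called lower (29.4%, close to that 31.3%) and 0 higher (median -0.09), against 0 lower and 11 higher with library totals. The 5 were Upf3a (-0.24), Upf1 (-0.22), Smg5 (-0.20), Smg6 (-0.18) and Upf3b (-0.17).

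Relative to the median of all genes, 35 of 74 core spliceosome genes, 26 of 50 SR-related regulators, 7 of 17 decay genes and 6 of 11 kinases and phosphatases were called lower, against 20.6% of all genes. With library totals, a change of scaling that the centring takes off, these counts were 34, 24, 5 and 6. The share of genes called lower than the median was not computed for genes whose counts averaged at least 500. Whether the SR proteins and hnRNPs differed from the core spliceosome was not tested.

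The deposited tables also give a transcript length per gene. It varied between cultures for genes with several transcripts and was therefore read as abundance-weighted, which no source used here states. A length of that kind changes where the use of isoforms of different length changes. Length was tested after seeing the data, with limma on log2 length. The 3474 genes tested had more than 1 transcript, counts averaging at least 100 and a length in every culture. Their log2 length also varied by more than 0.001 between cultures. Of 26 members tested, 0 were called, against 0.23% of these 3474 genes, and 5 had an unadjusted p below 0.05 (7.89% of the 3474). Celf1 had 6269, 6428 and 6516 bases in DMSO and 6608, 6700 and 6654 in NUP-17d, a non-overlapping rise of 3.91% (log2 0.06, adjusted p = 0.449). The other 4 were Hnrnpa2b1, Hnrnpab, Hnrnpc and Hnrnph3, whose lengths changed by less than 1%. The lengths are the authors' estimates, and no exon or junction was measured here.

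**Figure D4:**
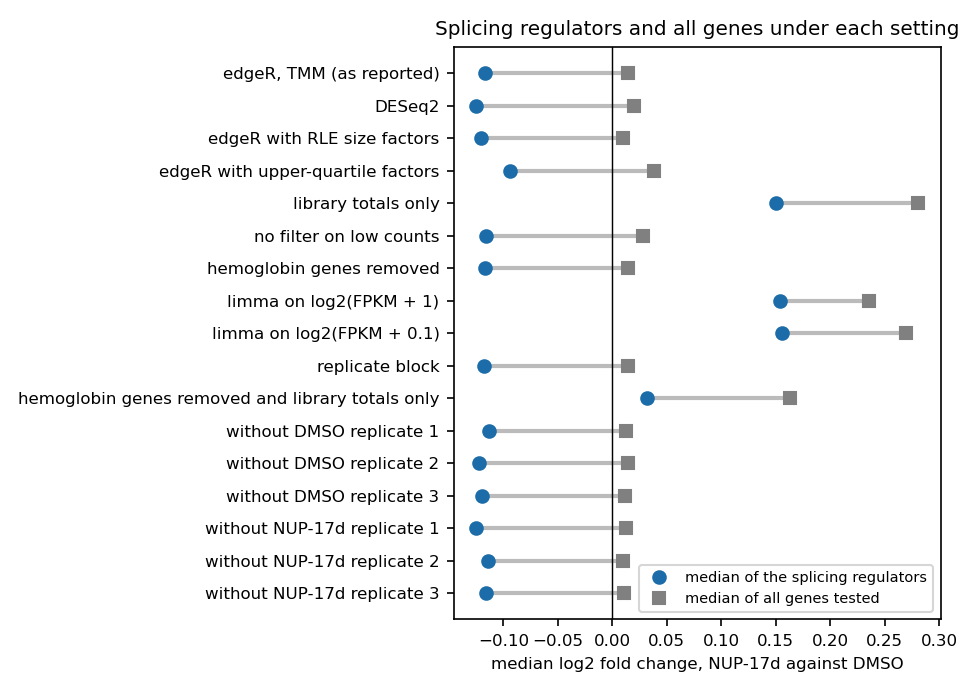
Median log2 fold change of the splicing regulators (circles) and of all genes tested (squares), NUP-17d against DMSO, under each setting, the horizontal axis in log2 units. The circles lie to the left of the squares in every setting, and the members' median is above 0 only when library totals or FPKM are used. The median of all genes is above 0 throughout.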

How the data were processed

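RNA-Seq was performed on 3 DMSO and 3 NUP-17d cultures. The labels describe oligo-dT enrichment, random priming and the DNBseq platform, whereas the study's methods name an Illumina stranded kit, so strandedness is uncertain. The authors deposited expected counts (estimated reads per gene, not normalised, 27.8% to 28.5% of values not whole), FPKM values (scaled by length and library total, with no composition correction) and a transcript length per gene. The submitters' processing notes name mm10, and the aligner and counting program are not given in the sources used here. A gene missing from a culture's table was taken as 0. Counts were rounded, filtered with filterByExpr (minimum count 10), TMM-scaled and tested with edgeR 4.0.16 (Benjamini-Hochberg over 12306 genes, threshold 0.05). The scripts were tested on simulated data. There edgeR recovered 64 of 100 changes of 0.3 on the log2 scale and 98 of 99 changes of 1, with 12 false calls. These were genes of all levels that passed the filter. Alternatives were DESeq2 1.42.0, other scalings and filters, limma 3.58.1 on log2 FPKM with a pseudocount of 1 or 0.1 (mean FPKM at least 1), a replicate block and each culture left out. Levels are TMM-normalised CPM, and intervals cover 95%. Named members were the 6 called with the highest and the 6 with the lowest log2 fold change at a mean count of at least 100, the 5 highest by FPKM and a set list, and up to 3 called genes at each end of each pathway list. Members and lists were chosen with earlier results of these data known. Promoters and positions are from RefSeq (GRCm38.p6), in which all 41 members were matched and 37 had a promoter.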

Additional observations from a re-analysis of the deposited data

How the results depend on the processing

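The direction of the members' values against zero depended on the scaling, while their place below the median of all genes did not. A change of scaling moves all genes by about the same amount, so that place could hardly depend on it. The median log2 fold change of the members was -0.0936 with upper-quartile factors (1 member called higher), 0.15 with library totals only, 0.15 with limma on log2(FPKM + 1), 0.16 with limma on log2(FPKM + 0.1) and 0.0321 with hemoglobin genes removed and library totals only, the last a setting added after seeing the data. In these last 4 settings 27, 26, 26 and 11 members were called higher and 0, 0, 0 and 5 lower, and 9115, 8494, 8480 and 6756 genes were called in all. Most genes were called higher in these settings: 8458, 7895, 7880 and 5703 of 12306, 10543, 10543 and 12283 tested. SR-related and other RNA-binding regulators were called 44 times and decay genes 11 times with library totals and with both limma fits, and core spliceosome genes 53 times with library totals and 19 with hemoglobin genes also removed. Most of these calls were in the opposite direction to those with TMM. With library totals 4 of the 44, 0 of the 11 and 1 of the 53 were lower and the rest higher. Without one culture in turn, 20 to 22 members were called lower and 0 higher.

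Of the members' values relative to the median of all genes, 575 of the alternative values kept direction and call, 25 lost the call and 2 gained it. On log2(FPKM + 1) the call was lost for Hnrnpa3, Hnrnph2, Hnrnpk, Hnrnpl, Hnrnpul2, Mbnl1, Ptbp1 and Tra2b, and on log2(FPKM + 0.1) for Hnrnpa3, Hnrnph2, Hnrnpl and Ptbp1. With single cultures left out, Hnrnpa3 lost it without any culture but DMSO replicate 2, Ptbp1 without DMSO replicates 2 or 3 or NUP-17d replicates 1 or 2, Hnrnph2 without DMSO replicate 3 or NUP-17d replicate 2, and Hnrnpl without DMSO replicate 2 or NUP-17d replicate 1. The 6 that changed sign were all uncalled and close to zero. With limma on log2(FPKM + 1) these were Hnrnpa0 (0.0123), Hnrnpul1 (0.0155) and Srsf6 (0.0114). Without one culture in turn, Srsf6 ranged from -0.0698 to 0.0049 and Srsf9 from -0.0051 to 0.103, Srsf6 being above zero without NUP-17d replicate 1 and Srsf9 below it without DMSO replicate 2 or NUP-17d replicate 3. The cause was not tested.

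Deviations of same-numbered cultures from their group means had correlations of 0.0566, -0.00461 and -0.00317. With 3 cultures per group, such values cannot show whether the numbers mark a pairing. With replicate number as a block, 22 members were called lower and 0 higher and 4543 genes in all. The block brought the genes called for transcript length from 8 to 0, and leaving out any 1 culture gave 0 to 4. These fits also have fewer residual degrees of freedom, and the cause was not tested. At these depths a difference in Rbfox2, Srsf12 or Hnrnpa1l2-ps2 could not be assessed, and mean counts of at least 573 underlie all other members.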
